A study of Mus musculus with 6 samples.

Results

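The 8 genes described here encode a tissue form and a widely expressed form of 4 subunits of cytochrome c oxidase. The pairs, tissue form first, are Cox4i2 and Cox4i1, Cox6a2 and Cox6a1, Cox7a1 and Cox7a2, and Cox8b and Cox8a. Testis forms of complex IV subunits are not among these genes. The 8 genes were chosen by name from the probe sets that carry a single gene symbol. All 8 were found, each with 1 probe set, among 19938 genes with such a probe set, and all 8 passed the filter on low signal. RNA was measured on 6 one-colour Affymetrix arrays, 3 of the Trail knockout (Trail-/-) and 3 of the wild type. Per the labels, all 6 samples were aorta of mice aged 6 weeks with the strain given as C57Bl6/J, the knockout mice came from Amgen, and no treatment is named. The deletion is not restricted to a cell type in the labels, and the labels do not say whether a sample holds 1 aorta or several.

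Cytochrome c oxidase, or complex IV, is the last enzyme of the respiratory chain and passes electrons from cytochrome c to oxygen while pumping protons. Its catalytic core is encoded by mitochondrial DNA, and smaller nuclear-encoded subunits surround that core and tune its activity. For some of these, mammals carry a widely expressed form, often called the liver form, and a form restricted to certain tissues. Cox6a2, Cox7a1 and Cox8b are the forms of heart and skeletal muscle, and in the mouse Cox7a1 and Cox8b are also strongly expressed in brown fat. Cox4i2 is the form of lung and of some vascular cells, and is known for its response to low oxygen. An aorta can carry fat, muscle and other tissue along its outer wall, and in such bulk RNA fewer cells of a type and less RNA per cell cannot be told apart.

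Signals are on the log2 scale, where a difference of 1 is a 2-fold change. Because probe sets differ in how well they bind, the level of one gene is not set against that of another. A pair is compared only through its contrast, the signal of the tissue form minus that of the widely expressed form on the same array, and through how far this contrast differs between arrays. A shift in scale that all probe sets of an array share drops out of this contrast.

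One array stood apart from the rest. Over the 13073 probe sets tested, the array labelled wild type 1 had a Pearson r of 0.652 to 0.688 with the others, while r among those 5 was 0.927 to 0.992. Skeletal muscle markers had a list median of 5.87 on wild type 1, against 11.42 to 11.92 elsewhere, and 15 of 15 were over 2-fold below every other array. Brown fat markers had a median of 9.51 there, against 6.21 to 6.36, and Ucp1 gave 12.32, against at most 4.59. Of 10 brown fat markers 9 were above all other arrays there. The other, Zic1, named after its values were seen, was below them, at 5.45 against 5.79 to 6.49. White fat markers had a median of 11.03 there, against 6.66 to 8.38, and squamous epithelium markers one of 4.92, against 9.96 to 10.08. Of the latter, Sprr3, Krt4 and Krt13 gave 4.92 to 5.31 on wild type 1 and 12.90 to 13.12 elsewhere. The highest value of any probe set was 13.96. That wild type 1 stood apart does not tell which arrays are nearer to aorta alone. Cardiac markers had a median of 8.16, against 5.65 to 6.23, but moved both ways, with 7 of 12 above all others there (6 by over 2-fold) and 3 below (1 by over 2-fold). Of the 3 with the widest range, Myh6 gave 9.64 and Nppa 8.61 on wild type 1, against at most 5.45 and 5.63 elsewhere, while Myl3 gave 6.19 there, against 11.23 to 11.90. Stomach epithelium markers had a median of 12.42 on knockout 2, against 4.81 to 6.79, and lung epithelium markers one of 7.28 on knockout 1, against at most 5.46 elsewhere. Smooth muscle markers, listed for the labelled vessel wall, had a median of 9.19 on wild type 1, against 10.30 to 11.09. There 4 of 10 were below all other arrays and 2 above. Des and Actg2 were below by over 2-fold, at 7.86 and 8.03, against at least 11.18 and 10.67 elsewhere. Other members of this list were named after their values were seen. Acta2, Myh11 and Tagln gave 12.62, 11.35 and 11.09 on wild type 1, within the range of the other arrays. The 2 above all others were Smtn and Myocd, at 9.12 and 7.24. Pericyte markers had medians of 8.18 to 8.65 and macrophage markers of 7.54 to 8.20 over the 6 arrays. The deleted gene Tnfsf10 gave 5.02, 4.48 and 4.09 on the knockout arrays, and 8.42, 4.90 and 4.85 on the arrays labelled wild type 1, 2 and 3. Its difference, knockout minus wild type, was -1.53 (SE 0.98) on 6 arrays. On 5 arrays, leaving out wild type 1, it was -0.35 (SE 0.25) and the groups overlapped. All values on those 5 arrays lay under the filter on low signal, 5.90, and both differences are from a fit without that filter. This gene thus does not check the labels of the other wild-type arrays, and directions follow the labels as given. Differences between the genotypes are therefore given with and without wild type 1.

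Promoters of 5 of the 8 genes were at hand from RefSeq (GRCm38.p6), and those of Cox4i1, Cox4i2 and Cox6a2 were not used here. They are shown because both members of the subunit 7a and subunit 8 pairs can be set side by side, and because Cox7a1 and Cox8b were the tissue forms whose profiles over the arrays were nearest to each other. Each run holds the 250 bases before the annotated start, 5′ to 3′. Capitals mark matches to the E-box letters CANNTG or to the NRF1 core TGCGCA, searched on both strands, which read the same.
Cox6a1 promoter, chr5:115348959-115349208, minus strand: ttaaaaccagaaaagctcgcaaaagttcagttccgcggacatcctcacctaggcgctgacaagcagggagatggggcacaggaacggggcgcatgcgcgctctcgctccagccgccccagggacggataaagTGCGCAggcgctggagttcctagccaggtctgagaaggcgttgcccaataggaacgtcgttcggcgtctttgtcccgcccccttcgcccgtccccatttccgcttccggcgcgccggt
Cox7a1 promoter, chr7:30183921-30184170, plus strand: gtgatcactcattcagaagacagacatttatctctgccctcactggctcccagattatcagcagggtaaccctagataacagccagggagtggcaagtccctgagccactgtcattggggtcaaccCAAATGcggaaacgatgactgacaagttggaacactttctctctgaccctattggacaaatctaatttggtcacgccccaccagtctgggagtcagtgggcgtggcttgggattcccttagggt
Cox7a2 promoter, chr9:79759854-79760103, minus strand: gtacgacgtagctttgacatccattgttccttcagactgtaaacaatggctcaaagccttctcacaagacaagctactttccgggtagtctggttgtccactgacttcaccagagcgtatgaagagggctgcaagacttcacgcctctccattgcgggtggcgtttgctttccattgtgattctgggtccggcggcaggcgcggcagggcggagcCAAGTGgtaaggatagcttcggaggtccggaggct
Cox8b promoter, chr7:140900447-140900696, minus strand: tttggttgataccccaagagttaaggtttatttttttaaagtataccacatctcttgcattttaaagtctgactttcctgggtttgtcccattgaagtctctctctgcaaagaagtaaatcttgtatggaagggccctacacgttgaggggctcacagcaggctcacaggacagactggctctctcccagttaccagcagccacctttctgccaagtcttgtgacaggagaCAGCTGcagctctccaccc
Cox8a promoter, chr19:7217617-7217866, minus strand: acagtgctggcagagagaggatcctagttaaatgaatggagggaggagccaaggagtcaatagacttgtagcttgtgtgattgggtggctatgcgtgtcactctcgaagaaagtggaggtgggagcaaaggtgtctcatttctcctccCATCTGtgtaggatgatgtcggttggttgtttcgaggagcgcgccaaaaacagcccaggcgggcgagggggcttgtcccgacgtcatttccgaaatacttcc

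Of the tissue forms shown, Cox7a1 had 4 CG dinucleotides in its window and Cox8b 1, at percentiles 38.1 and 8.26 of all promoters. The widely expressed forms shown had 14 in Cox7a2, 11 in Cox8a and 26 in Cox6a1, and the median over 27025 promoters was 6. GC content was 51.2% in Cox7a1 and 47.2% in Cox8b, against 54.8% in Cox7a2, 52.8% in Cox8a and 62.8% in Cox6a1, with a median of 52% over all. An E-box was present once in each of Cox7a1, Cox7a2, Cox8b and Cox8a, a match that 66.0% of all promoters hold. The exact letters TGCGCA of the NRF1 core were present once in Cox6a1 and are held by 6.66% of promoters. Longer or variant forms of the NRF1 site were not searched, so such sites may stand unmarked in these windows. The stretch gcgcatgcgc in the Cox6a1 window, for example, is not marked. The ERR site AAGGTCA (4.05% of promoters, either strand) and the MEF2 site (0.518%) had no match in the 5 windows. In the same assembly Cox6a2, Cox7a1 and Cox8b all lie on chromosome 7, while Cox6a1, Cox7a2 and Cox8a lie on chromosomes 5, 9 and 19.

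Subunit 4 is the large regulatory subunit that binds adenine nucleotides. Cox4i2, the oxygen-responsive form, gave 6.40, 6.37 and 6.26 on the knockout arrays, and 6.58, 6.00 and 6.23 on wild type 1, 2 and 3. It spanned 0.57 over the 6 arrays, the narrowest range of the 8 genes. Wild type 1 was the highest array and wild type 2 the lowest, so the groups overlapped. The knockout mean was 6.34 ± 0.07 and the wild-type mean 6.27 ± 0.29 (SD, n = 3 each), a difference of 0.07 (SE 0.17, 95% interval -0.34 to 0.48, limma adjusted p = 0.929). Without wild type 1 all 3 knockout arrays lay above both wild-type arrays, and the difference was 0.23 (SE 0.13, 95% interval -0.09 to 0.54, limma adjusted p = 0.997). On the summed scale, lung epithelium markers stood at 12.75 on knockout 1, 8.66 and 8.71 on knockout 2 and 3, and 8.20 to 8.82 on the wild-type arrays. Cox4i2, the lung form, was 0.23 higher on knockout 1 than the mean of knockout 3 and wild type 2 and 3, and knockout 2 was as high. The part of lung RNA in this was not tested.

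Cox4i1, the general form of subunit 4, gave 10.28, 10.57 and 10.33 on the knockout arrays, and 11.64, 10.23 and 10.26 on wild type 1, 2 and 3. Wild type 1 was 1.31 above the mean of the other 5 (2.47-fold), and those 5 lay within 0.34 of each other. Knockout averaged 10.39 ± 0.15 and wild type 10.71 ± 0.81 (SD, n = 3 each), a difference of -0.32 (SE 0.41, 95% interval -1.32 to 0.69, limma adjusted p = 0.911). Without wild type 1 the sign turned and the groups did not overlap, with a difference of 0.15 (SE 0.12, 95% interval -0.14 to 0.44, limma adjusted p = 0.997). Among the 8 genes, 2 (Cox4i1 and Cox4i2) had groups that did not overlap on these 5 arrays, both higher in the knockout, where 4.25% of all probe sets tested did so. None of the 8 was lower without overlap (8.45% of probe sets), and 12.7% did not overlap in either direction. On 6 arrays it was 0 of 8 higher and 0 of 8 lower, with 1.35% and 4.39% of all probe sets, or 5.74% together.

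Subunit 6a lies where the monomers of the enzyme meet, and its pair showed the widest divergence between arrays. Cox6a2, the heart and skeletal muscle form, gave 10.33, 9.72 and 10.50 on the knockout arrays, and 7.73, 10.29 and 10.52 on wild type 1, 2 and 3. It was the only member that was lowest on wild type 1, where its distance from the mean of the other arrays was -2.54 (5.82-fold lower). Its partner Cox6a1 gave 9.71, 10.69 and 9.68 on the knockout arrays, and 11.85, 9.75 and 9.59 on wild type 1, 2 and 3. There Cox6a1 was 1.97 above the mean of the others (3.91-fold), the opposite direction to Cox6a2.

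Between the genotypes Cox6a2 averaged 10.19 ± 0.41 in the knockout and 9.51 ± 1.55 in the wild type (SD, n = 3 each), a difference of 0.67 (SE 0.78, 95% interval -1.24 to 2.59, limma adjusted p = 0.911). On the 5 other arrays the difference was -0.22 (SE 0.23, 95% interval -0.78 to 0.34, limma adjusted p = 0.997). Cox6a1 averaged 10.02 ± 0.57 in the knockout and 10.39 ± 1.26 in the wild type (SD, n = 3 each), with a difference of -0.37 (SE 0.67, 95% interval -2.03 to 1.29) that was 0.36 (SE 0.31, 95% interval -0.38 to 1.09) without wild type 1. The signs of both differences turned without that array, in opposite senses, and their groups overlapped with and without it. Within the knockout, knockout 2 held the lowest Cox6a2 and the highest Cox6a1 value.

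Subunit 7a sits at the edge of the enzyme that faces its partners in the respiratory chain. Cox7a1, the muscle and brown fat form, gave 9.92, 9.58 and 10.28 on the knockout arrays, and 11.59, 10.05 and 10.23 on wild type 1, 2 and 3. Cox7a2, the widely expressed form, gave 9.57, 10.01 and 9.80 on the knockout arrays, and 10.90, 9.76 and 9.77 on wild type 1, 2 and 3. Both were highest on wild type 1, by 1.57 for Cox7a1 (2.98-fold) and by 1.12 for Cox7a2 (2.17-fold) over the mean of the others. Knockout 2 was the lowest array for Cox7a1 and the highest for Cox7a2 after wild type 1.

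Cox7a1 averaged 9.93 ± 0.35 in the knockout and 10.62 ± 0.84 in the wild type (SD, n = 3 each), a difference of -0.69 (SE 0.45, 95% interval -1.80 to 0.42, limma adjusted p = 0.911). The value on 5 arrays was -0.21 (SE 0.20, 95% interval -0.70 to 0.28). Cox7a2 averaged 9.79 ± 0.22 in the knockout and 10.14 ± 0.66 in the wild type (SD, n = 3 each), with a difference of -0.35 (SE 0.35, 95% interval -1.21 to 0.51) on 6 arrays and 0.03 (SE 0.15, 95% interval -0.32 to 0.38) without wild type 1. The groups of both genes overlapped with and without that array.

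Subunit 8 is the smallest of these subunits and crosses the inner membrane. Cox8b, the form of muscle, heart and brown fat in the mouse, gave 10.10, 9.37 and 10.46 on the knockout arrays, and 12.43, 10.43 and 10.60 on wild type 1, 2 and 3. It had the widest range of the 8 genes, 3.06 over 6 arrays and 1.23 without wild type 1, where it lay 2.24 above the mean of the others (4.73-fold). Cox8a, the general form, gave 9.09, 9.36 and 8.79 on the knockout arrays, and 10.63, 8.88 and 8.91 on wild type 1, 2 and 3. It too was highest on wild type 1, by 1.62 (3.07-fold), and among the other 5 it was highest on knockout 2, where Cox8b was lowest.

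Cox8b averaged 9.98 ± 0.56 in the knockout and 11.15 ± 1.11 in the wild type (SD, n = 3 each), a difference of -1.18 (SE 0.61, 95% interval -2.67 to 0.32, limma adjusted p = 0.911). It had the largest genotype difference of the 8 genes in size, and it kept its sign without wild type 1 at -0.54 (SE 0.30, 95% interval -1.25 to 0.18, limma adjusted p = 0.997). Knockout 3, at 10.46, was above wild type 2, so the groups overlapped there. Cox8a averaged 9.08 ± 0.29 in the knockout and 9.47 ± 1.00 in the wild type (SD, n = 3 each), with a difference of -0.39 (SE 0.51, 95% interval -1.65 to 0.86) that became 0.18 (SE 0.18, 95% interval -0.24 to 0.60) without wild type 1.

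**Figure D1:**
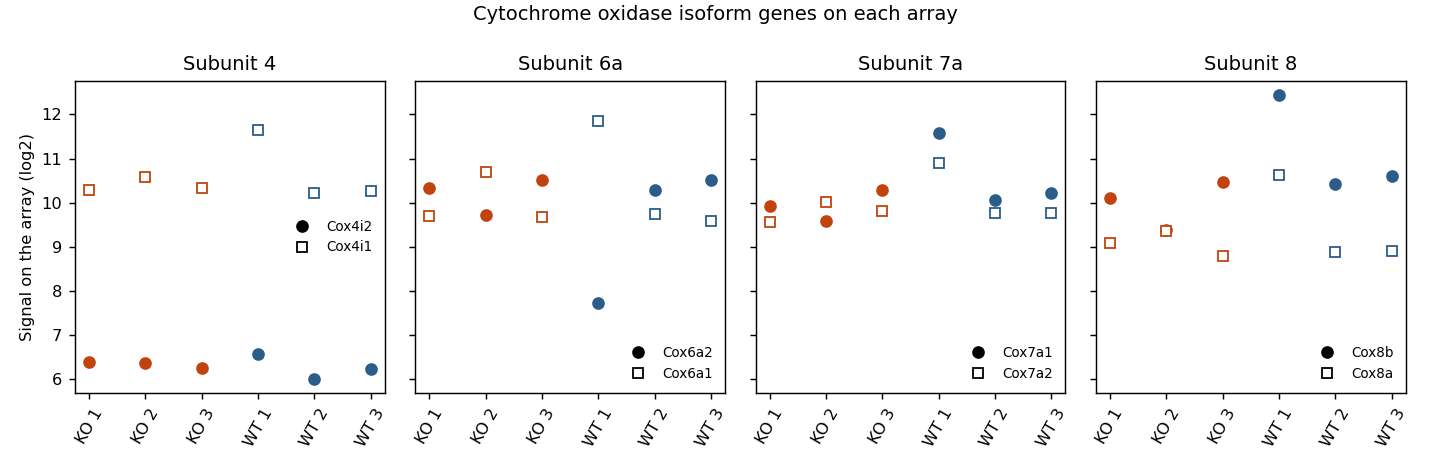
Each panel shows 1 subunit, with the array on the x axis (3 knockout, KO, then 3 wild type, WT) and the log2 signal on the y axis. Filled circles are the tissue form and open squares the widely expressed form, and heights of different genes are not comparable. WT 1 is highest for 7 of the 8 genes and lowest for Cox6a2, at 7.73.

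In the test across all probe sets, 0 of the 8 isoform genes passed at an adjusted p under 0.05 on 6 arrays, where the background was 0% (0 of 13073). At an unadjusted limma p under 0.05 the count was also 0 of 8, against 0.635% (83 of 13073). Without wild type 1 both counts were again 0 of 8, with 0% of all probe sets passing and 1.42% under the unadjusted threshold. The median difference of the 8 genes was -0.36 on 6 arrays and 0.09 on 5, and that of all probe sets tested was -0.04 and -0.03. The 95% intervals of the 6-array differences were wide, reaching from -2.67 to 0.32 for Cox8b, and those of Cox6a1 and Cox6a2 held differences of over 2-fold in both directions.

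**Figure D2:**
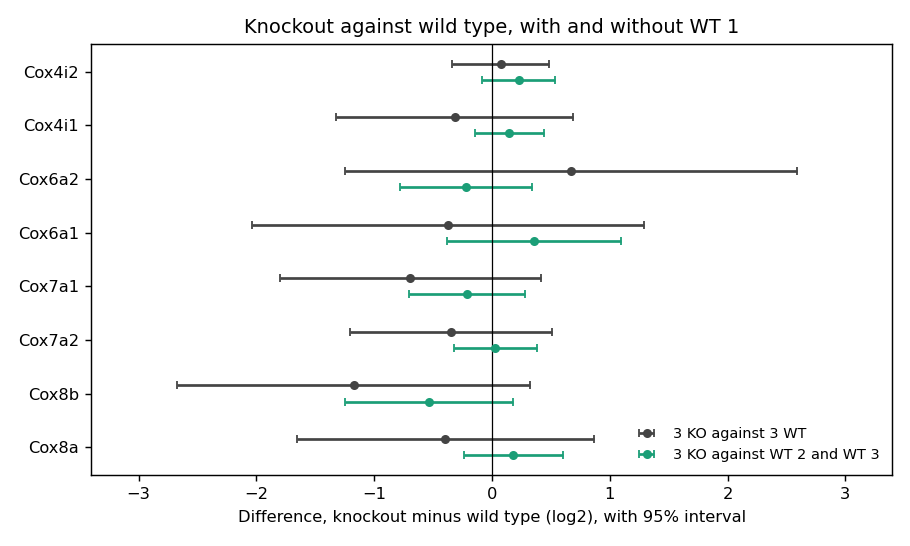
Points give each gene's limma difference (log2, knockout minus wild type), and bars its 95% interval. Dark grey uses all 6 arrays and green leaves out WT 1. All intervals include 0, and 5 of the 8 points change sign between the 2 sets of arrays.

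The contrast within each pair was then set between the arrays. For subunit 6a, Cox6a2 minus Cox6a1 was 0.63, -0.97 and 0.82 on the knockout arrays, and -4.11, 0.54 and 0.93 on wild type 1, 2 and 3. Wild type 1 minus the mean of the other 5 arrays was -4.51, a 22.7-fold shift toward the widely expressed form. For subunit 8, Cox8b minus Cox8a was 1.01, 0.01 and 1.67 on the knockout arrays, and 1.81, 1.55 and 1.69 on wild type 1, 2 and 3. Here wild type 1 was the highest array, 0.62 above the mean of the others (1.54-fold), a shift toward the tissue form.

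For subunit 7a, Cox7a1 minus Cox7a2 was 0.36, -0.43 and 0.48 on the knockout arrays, and 0.69, 0.30 and 0.46 on wild type 1, 2 and 3. Wild type 1 was again highest, by 0.45 over the mean of the others (1.37-fold). For subunit 4, Cox4i2 minus Cox4i1 was -3.89, -4.20 and -4.07 on the knockout arrays, and -5.07, -4.22 and -4.03 on wild type 1, 2 and 3, so wild type 1 minus the mean of the others was -0.98 (1.98-fold). On this array the subunit 6a and 4 contrasts were thus below all other arrays and the subunit 7a and 8 contrasts above them. The summed brown fat signal was 10.53 to 10.69 on the knockout arrays, and 13.81 on wild type 1 and 10.50 to 10.58 on wild type 2 and 3. On wild type 1, 9 of 10 of these markers were highest and 1 was lowest. The summed cardiac signal was 13.10 to 13.58 on the knockout arrays, and 12.80 on wild type 1 and 13.20 to 13.50 on wild type 2 and 3. A sum weighs the strongest markers most. Off wild type 1 these were Actc1, named after its values were seen, at 12.30 to 12.81, and Myl3, at 11.23 to 11.90. Both were lowest on wild type 1, at 11.36 and 6.19. The cardiac list median was instead highest on wild type 1, at 8.16 against 5.65 to 6.23. The part of muscle, heart and fat RNA in the contrasts was not tested.

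Knockout 2 was the array with the lowest contrast among the 5 others for subunits 6a, 7a and 8. Against the mean of knockout 1 and 3 and wild type 2 and 3, its contrast was at -1.70 for subunit 6a (3.25-fold), -0.82 for subunit 7a (1.77-fold) and -1.47 for subunit 8 (2.77-fold). Those 4 arrays had SDs of 0.18, 0.09 and 0.32. Knockout 2 was set apart after its values were seen, so these SDs do not measure how unusual it is. Relative to the 4-array mean, Cox6a2, Cox7a1 and Cox8b were at -0.69, -0.54 and -1.03, and Cox6a1, Cox7a2 and Cox8a at 1.01, 0.29 and 0.44. In the subunit 4 pair, Cox4i1 was 0.29 and Cox4i2 0.15 above it. All 4 widely expressed forms were above each of these 4 arrays, as were 21.8% of all probe sets, and 3 tissue forms were below each, as were 35.5%.

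The same array carried the stomach markers, with 9 of 9 above those 4 arrays, and its skeletal muscle markers were below them for 14 of 15, with a median of -0.39. Macrophage markers were below them for 9 of 9, with a median of -0.44, and smooth muscle markers above them for 8 of 10, with a median of 0.31. The summed skeletal muscle signal was 15.61, 15.33 and 15.80 on the knockout arrays, and 10.82, 15.62 and 15.84 on wild type 1, 2 and 3. Summed stomach signal was 8.61, 15.52 and 8.34 on the knockout arrays, and 8.54, 8.18 and 10.90 on wild type 1, 2 and 3. The summed macrophage signal was 11.03 to 11.99 on the knockout arrays and 11.78 to 11.91 on the wild-type arrays. The summed smooth muscle signal was 13.95 to 14.46 on the knockout arrays and 13.76 to 14.34 on the wild-type arrays. The part of muscle, stomach and macrophage RNA in the pair contrasts was not tested.

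**Figure D3:**
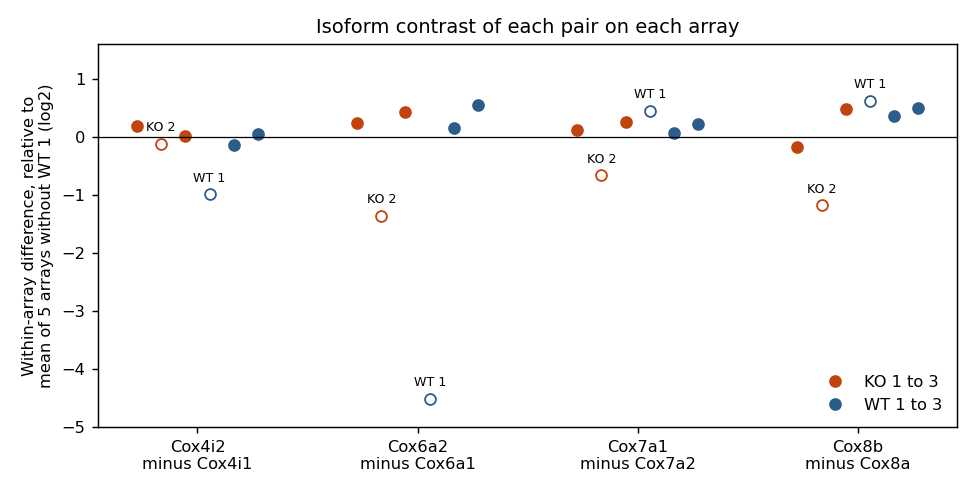
For each pair the y axis gives the tissue form minus the widely expressed form on 1 array (log2), after subtracting the mean of the 5 arrays other than WT 1. Rust points are knockout and blue points wild-type arrays, with KO 2 and WT 1 drawn open. WT 1 lies at -4.51 for subunit 6a and above all other arrays for subunits 7a and 8, and KO 2 is the lowest of the remaining 5 in these 3 pairs.

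Between the genotypes none of the 4 contrasts differed on 6 arrays by more than the larger SD of the groups. The SDs in knockout and wild type were 0.16 and 0.55 for subunit 4 and 0.98 and 2.81 for subunit 6a. They were 0.49 and 0.20 for subunit 7a and 0.84 and 0.13 for subunit 8, so both differences exceeded the wild-type SD. The contrast differed by 0.39 for subunit 4, 1.04 for subunit 6a, -0.34 for subunit 7a and -0.78 for subunit 8 on 6 arrays, knockout minus wild type. Exact two-sided permutation p-values were 0.4, 0.8, 0.5 and 0.2, and after Benjamini-Hochberg adjustment over the 4 pairs 0.667, 0.8, 0.667 and 0.667. With 3 arrays against 3 the smallest p this exact test can give is 0.1, so it could not pass 0.05 and cannot show that a difference is absent. On the 5 arrays without wild type 1 the differences were 0.08, -0.58, -0.24 and -0.72 (exact permutation p = 0.8, 0.6, 1 and 0.4), and the smallest p is then 0.2. Without knockout 2 as well they were 0.15, -0.01, 0.04 and -0.27. The subunit 8 contrast had the same sign in these 3 sets of arrays, from -0.78 to -0.27. Knockout 2 was picked for its low subunit 6a, 7a and 8 contrasts, so smaller differences without it are no separate result. Leaving out wild type 1 and knockout 3 instead gave 0.09, -0.91, -0.41 and -1.10. With wild type 1 and knockout 1 left out they were -0.0049, -0.81, -0.35 and -0.77.

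The single genes were read on the same 4 arrays, with knockout 2 left out together with wild type 1. Cox6a1 was then at 0.02, Cox6a2 at 0.01, Cox7a1 at -0.04, Cox7a2 at -0.08, Cox8a at 0.04 and Cox4i1 at 0.06. Cox8b was at -0.23 and Cox4i2 at 0.21, the only members over 0.1 in size on these 4 arrays. With knockout 3 left out in place of knockout 2, Cox6a1 was at 0.53, Cox6a2 at -0.38, Cox7a1 at -0.39 and Cox7a2 at 0.03. In that run Cox8a was at 0.33, Cox8b at -0.78, Cox4i1 at 0.18 and Cox4i2 at 0.27.

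The rest of complex IV was examined for comparison, 37 genes of which 32 were found and 30 tested. None passed at an adjusted p under 0.05 or an unadjusted limma p under 0.05. On 6 arrays 29 of 30 were lower in the knockout, with a median difference of -0.28, against 7484 of 13073 probe sets tested and a median of -0.04. Without wild type 1 it was 13 of 30, with a median of 0.0057, against 7535 of 13073 and -0.03. The members with the lowest p were Cox11, which delivers copper to the core, at -0.20 (SE 0.11), Coa7, an assembly factor, at -0.33 (SE 0.20), and Taco1, an activator of translation of the mitochondrial core subunit, at -0.42 (SE 0.26). Among structural subunits and cytochrome c they were Cycs, cytochrome c itself, at -0.54 (SE 0.43), Cox5b at -0.42 (SE 0.34) and Ndufa4, the subunit once assigned to complex I, at -0.31 (SE 0.26). The limma adjusted p was 0.911 for each of these 6. On the 5 arrays other than wild type 1 the differences were smaller in size, -0.13 (SE 0.11) for Cox11, -0.14 (SE 0.13) for Coa7 and -0.14 (SE 0.11) for Taco1. They were -0.090 (SE 0.21) for Cycs, -0.030 (SE 0.11) for Cox5b and -0.016 (SE 0.089) for Ndufa4, with a limma adjusted p of 0.997 for each of the 6.

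On wild type 1, 29 of 32 of these genes were above every other array and 8 of 32 by over 2-fold, and none was below. Of the 8 isoform genes 7 were above, 5 of them by over 2-fold (Cox4i1, Cox6a1, Cox7a1, Cox8a and Cox8b), and 1 of 8, Cox6a2, was below all others, by over 2-fold. Among all probe sets tested, 38.9% were above all other arrays there (6.38% by over 2-fold) and 30.8% were below all others (7.76% by over 2-fold). The median shift of wild type 1 from the mean of the others was 1.44 for the 8 isoform genes, 0.79 for the rest of complex IV and 0.05 for all probe sets tested. On knockout 2 the rest of complex IV had a median shift of 0.03 from the 4-array mean, while the 4 widely expressed isoforms had one of 0.37 and the 4 tissue forms one of -0.61. These shifts were not particular to the isoforms. Within the rest, 8 of 32 genes were above each of those 4 arrays on knockout 2 and 6 below each. Picked after their values were seen, Sco1, Cox5a, Cox17 and Cox6b1 were there at 0.47, 0.39, 0.38 and 0.35. On wild type 1, Cox17, Cycs and Cox5a were at 1.54, 1.41 and 1.37.

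**Figure D4:**
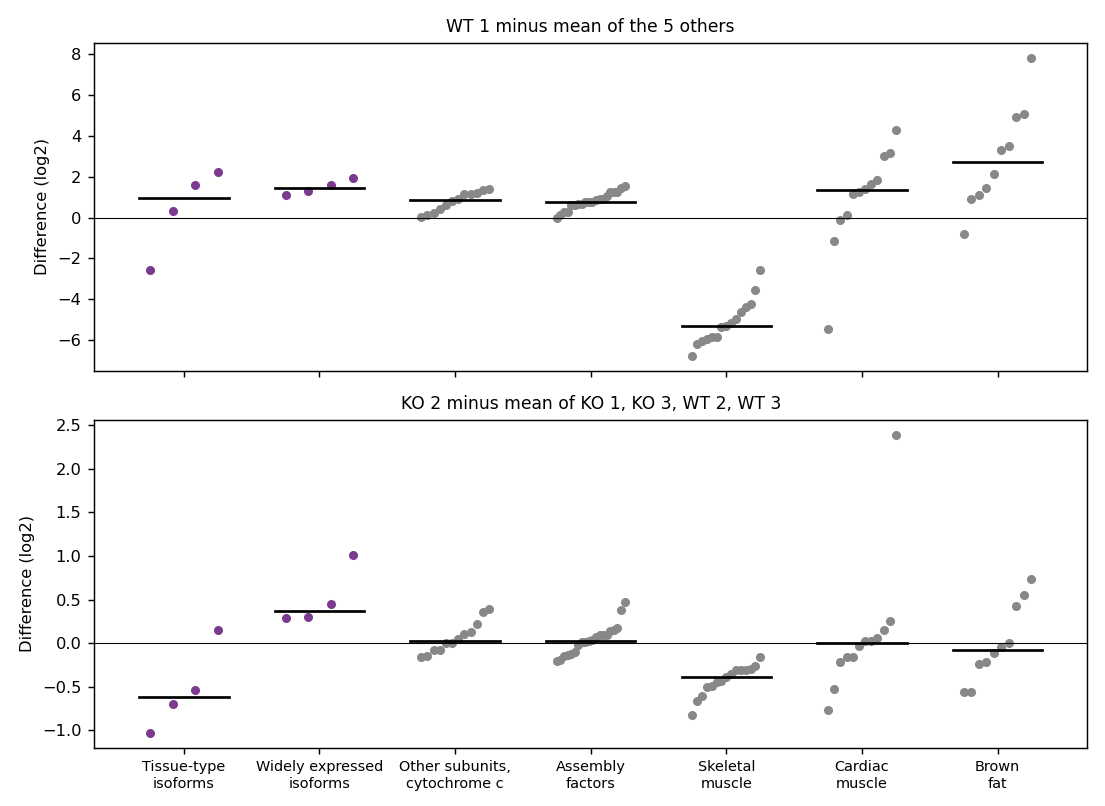
Each point is a gene. The upper panel gives the log2 signal on WT 1 minus the mean of the 5 other arrays, and the lower panel that on KO 2 minus the mean of KO 1, KO 3, WT 2 and WT 3, with black bars at list medians. The lists are the tissue and widely expressed isoforms (purple), the rest of complex IV, and markers of skeletal muscle, heart and brown fat. Cox6a2 is the 1 isoform below 0 on WT 1, where skeletal muscle markers have a median of -5.29 and brown fat markers one of 2.72.

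Transcription factors and coactivators that act on mitochondrial or muscle genes were read from the same fit. Of 21 listed genes 20 were found and tested, and none passed on 6 or 5 arrays. The lowest p-values belonged to Nrf1, nuclear respiratory factor 1, at -0.19 (SE 0.11), Tfam, which packages mitochondrial DNA, at -0.44 (SE 0.26), and Gabpa, an Ets factor of respiratory genes, at -0.22 (SE 0.15), each with a limma adjusted p of 0.911. On 5 arrays they were at -0.25 (SE 0.12), -0.22 (SE 0.20) and -0.14 (SE 0.14), each with a limma adjusted p of 0.997. On wild type 1, 12 of the 20 regulators were above all other arrays and 6 below, with a median shift of 0.18. Other members were named after their values were seen. Relative to the mean of the others, the muscle factors Myog and Mef2c were at -1.73 and -2.18 on wild type 1. The coactivator gene Ppargc1a and the fat and oxidation receptors Pparg and Ppara were at 1.13, 3.87 and 2.22 there, while Ppard, of the same receptor family, was at -0.34, below every other array.

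Profiles over the 6 arrays were compared by the root mean square difference after each gene was centred on its own mean. Within the 8 genes the nearest were Cox4i1 and Cox7a2, at 0.10, then Cox4i1 and Cox8a, at 0.16, and Cox7a1 and Cox8b were at 0.32. Cox6a2 was far from all, with distances of 1.12 to Cox4i2 and at least 1.41 to the others. Among 11873 other genes, those nearest to Cox6a2 were Mb, myoglobin, at 0.03, Cap2 at 0.06 and Slc25a12 at 0.08. Nearest to Cox7a1 were Idh3a at 0.08, Prdx3 at 0.09 and Eci2 at 0.10, and nearest to Cox8b were Nr4a1 at 0.20, Tmem143 at 0.22 and Ccn2 at 0.24. For Cox4i1 they were Cyb5b, Pctp and Ogdh (0.05 each), for Cox6a1 Id2 at 0.10, Adipor2 at 0.13 and Glul at 0.14, for Cox7a2 Ccni, Atxn2 and Stradb (0.05 to 0.06), and for Cox8a Gstt2, Deptor and Tmem14c (0.06 to 0.07). These distances describe 6 arrays, and wild type 1 holds the highest or lowest value of all 8 isoform genes. Cox4i2 spanned less than 1 and was not matched to other genes. Myoglobin gave 12.25, 11.69 and 12.40 on the knockout arrays, and 9.66, 12.27 and 12.49 on wild type 1, 2 and 3, so wild type 1 and knockout 2 were its lowest arrays, as for Cox6a2.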

How the data were processed

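Per the labels' protocols, 6 ug of Trizol-extracted RNA gave the biotin-labelled cRNA of each array. The deposited table holds log2 values, 1 column per sample, for 35399 probe sets, and the base was read from their range (1.55 to 13.96). MAS5 appears in the submitters' processing notes, without a role. No label or header names the background correction, summary or scaling. Values were used as deposited, and no detection calls were used. Probe sets were named from the platform annotation, and 21789 had 1 symbol. After the lowest 40% by mean signal were left out, 13073 were tested in limma 3.58.1 (R 4.3.3) with a mean-variance trend, knockout against wild type, at a Benjamini-Hochberg adjusted p of 0.05. The fit was also run on simulated data with independent noise and no outlying array, so that run does not cover an array like wild type 1. Pair contrasts used exact permutation tests over arrays (SciPy 1.17.1).

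The isoform genes and gene lists were chosen with earlier results of these data known. Named genes followed a fixed rule: all isoform genes, the 3 lowest p in each group of other complex IV genes and regulators, the 3 nearest profiles of each isoform gene spanning over 1, and markers among the 3 widest-ranging of their list, of which only some are printed. Exceptions are stated. Alternatives were other scalings, filters, variance models, weights, a replicate block, a pseudocount of 64 and leaving out arrays. Nothing says that samples came from separate animals, so the p-values cover only the spread among these 6 samples, which may be technical, and the number of arrays limits the precision. Sequences are from RefSeq (GRCm38.p6). No build is named for the probe design.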

Additional observations from a re-analysis of the deposited data

How the results depend on the processing

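No isoform gene, no other complex IV gene and no probe set passed under any alternative, and the lowest limma adjusted p of an isoform gene was 0.615. Leaving out 1 array, or wild type 1 with a further one, gave -0.56 to 0.21 for Cox4i1, -0.059 to 0.34 for Cox4i2, -0.77 to 0.53 for Cox6a1, -0.38 to 1.18 for Cox6a2, -0.98 to -0.04 for Cox7a1, -0.54 to 0.14 for Cox7a2, -0.69 to 0.33 for Cox8a and -1.54 to -0.23 for Cox8b. The pair contrasts ranged from -0.018 to 0.59 for subunit 4, from -0.91 to 1.95 for subunit 6a, from -0.52 to 0.043 for subunit 7a and from -1.17 to -0.27 for subunit 8. Of 42 turned signs, 37 came from runs without wild type 1, 1 (Cox4i2, -0.059) from leaving out wild type 2, and 4 from array weights, with Cox4i1 at 0.075, Cox6a1 at 0.25, Cox6a2 at -0.20 and Cox8a at 0.14. The median of the other complex IV genes was -0.44 to 0.048 over the runs that left out arrays, and 0.0057 without wild type 1. The labels do not say that a shared number marks a pair, so the numbers were not taken as pairs. Deviations from the group means correlated at 0.09, -0.24 and 0.21 between samples sharing a number. With wild type 1 so far from the other arrays, these correlations cannot decide whether samples were paired. With the replicate block 0 probe sets passed, Cox8b stayed at -1.18 (limma adjusted p = 0.962), and no call changed. Arrays of this number cannot resolve differences inside the intervals given.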

Other observations

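A further pair of related genes lay outside the isoform pairs. Ndufa4l2, a paralogue of the complex IV subunit gene Ndufa4 that is known as a target of the hypoxia pathway and was listed here with pericyte markers, gave 8.98, 8.39 and 9.32 on the knockout arrays, and 6.77, 8.95 and 8.79 on wild type 1, 2 and 3. Ndufa4 gave 11.40, 11.37 and 11.51 on the knockout arrays, and 12.32, 11.46 and 11.43 on wild type 1, 2 and 3. On wild type 1 the paralogue was thus the lowest of the 6 arrays and Ndufa4 the highest, the same opposite directions as Cox6a2 and Cox6a1. The 2 genes were set side by side after their values were seen. Among testis forms of complex IV subunits, Cox6b2 gave 5.96, 5.67 and 5.85 on the knockout arrays, and 6.44, 5.60 and 5.91 on wild type 1, 2 and 3, while Cox8c stayed between 5.78 and 6.15. Both genes were named outside the fixed rule, and their signals lay near the filter on low signal, 5.90. Cox7b2 and Cyct of the same list fell below that filter.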
